A study of Mus musculus with 12 samples.

Results

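The 2 control lines of a mouse embryonic stem cell series were compared with each other: the line overexpressing wild-type histone H3.1 (H3.1WT) and the line carrying the hairpin labelled shNC, read here as the non-targeting control. They gave 4 of the 12 libraries of the series, 2 per line. All genes with at least 1 FPKM (fragments per kilobase of transcript, scaled to the mapped total) in at least 2 of these 4 libraries are described, which were 12573 of the 23354 genes in the files. A gene just inside that limit was Ubxn10, with 1.001 FPKM in its second highest library, and one just outside was Gm9895, with 0.999989 FPKM.

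Every line was a stable line of J1 cells, labelled as strain J1. All lines were grown on inactivated mouse embryonic fibroblast feeders in a medium with fetal bovine serum and leukemia inhibitory factor. The histone arm also held lines overexpressing H3.1 with a lysine-to-methionine change, H3.1K9M and H3.1K36M, and the hairpin arm held lines with hairpins named for the H3K9 methyltransferases, shSuv39h1 and shSuv39h2. H3.1WT therefore carried an overexpression construct and shNC a hairpin construct, and no untransfected J1 line was analysed here. The labels give 2 library kits without saying which library came from which, give no feeder removal step, and do not say whether a line is 1 clone or whether replicates are separate cultures. Construct, line, library preparation and the processing of each arm thus cannot be told apart, and the p-values here reflect no more than how these libraries scatter, which can be technical in origin.

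Mouse embryonic stem cells hold a pluripotent state through the factors Oct4 (Pou5f1), Sox2 and Nanog. In serum with leukemia inhibitory factor such cultures are known to be mixed: most cells express naive pluripotency factors, while a minority can switch on genes of the later epiblast or of early lineages. Wnt signalling through beta-catenin is one known input to primitive streak genes such as T, and lines kept apart for many passages can drift in these minority programmes and in DNA methylation.

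Depth was not stated, but low values of single-transcript genes fell on whole multiples of a common step in 98.4% of 3438 values, within a tolerance of 0.05 of a step. On that scale, 1 FPKM of a 2 kb transcript corresponded to 45.8 and 44.7 fragments in H3.1WT and to 41.6 and 53.6 in shNC, within the range of the 12 libraries. The 4 libraries held between 12337 and 12508 genes at 1 FPKM or more, and their 10 most abundant genes took 8.01% to 8.80% of the summed FPKM. Median-of-ratios size factors lay between 0.985 and 1.012.

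Both lines expressed the genes that define embryonic stem cells. Pou5f1 was at 807 and 755 FPKM in H3.1WT and at 693 and 748 in shNC. Nanog was at 184 and 199 FPKM in H3.1WT and at 161 and 227 in shNC. Zfp42 (Rex1), a marker of undifferentiated cells, was at 407 and 400 FPKM in H3.1WT and at 342 and 427 in shNC. The ranges of the lines overlapped for Nanog and Zfp42, and the Pou5f1 ranges were apart by less than the gap between replicates. All 17 core pluripotency genes listed were detected in every control library, from 20.7 to 2383 FPKM as means of the 4 libraries. Y-linked Eif2s3y was at 24.4 and 24.7 FPKM in H3.1WT and at 22.9 and 24.7 in shNC, and Ddx3y lay between 8.003 and 9.69 FPKM. J1 is known as a male line.

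RNA of fibroblast marker genes was present in all 4 libraries, and its origin in the feeders was not tested. All 36 listed fibroblast markers were detected in all of them, and 34 passed the level limit. Their summed level was 1354 and 2249 FPKM in H3.1WT and 1587 and 2280 FPKM in shNC, so the second replicate was higher than the first in both lines and the lines overlapped. Thy1, a fibroblast surface glycoprotein, was at 16.4 and 17.3 FPKM in H3.1WT and 20.9 and 21.1 in shNC. Mmp2, a secreted metalloproteinase, was at 15.6 and 14.7 FPKM in H3.1WT and at 21.1 and 16.9 in shNC. These genes did not follow the sum: Thy1 changed little between replicates, and Mmp2 was lower in the second replicate of both lines. Col6a2 and Pdgfrb had lines that overlapped. In bulk RNA, fewer cells of a type and less RNA per cell cannot be told apart.

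**Figure D1:**
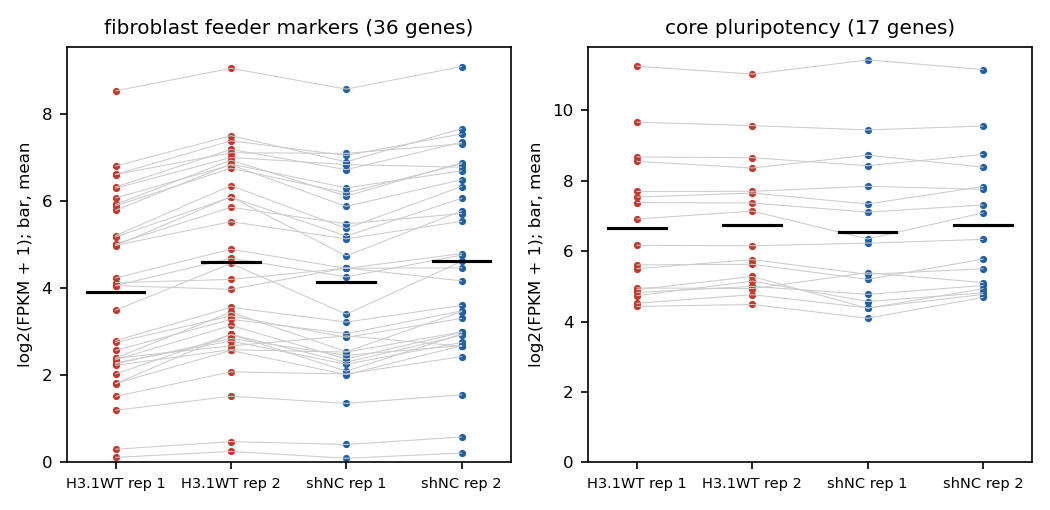
Level of fibroblast feeder markers (left, 36 genes) and core pluripotency genes (right, 17 genes) in the 4 control libraries, as log2(FPKM + 1); grey lines join a gene's points and black bars are means over genes. The feeder means are higher in replicate 2 of each line, whereas the pluripotency means stay within a narrow band.

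The most abundant genes were those of translation and glycolysis. The 10 highest were Gapdh, Eef1a1, Ppia, Rpl32, Rps12, Rpl41, Rplp1, Rps2, Rpl13 and Rplp2. Gapdh, a glycolytic enzyme, was at 6434 and 5701 FPKM in H3.1WT and at 6863 and 5684 in shNC. The translation elongation factor Eef1a1 was at 5784 and 5641 FPKM in H3.1WT and at 5567 and 5281 in shNC. Over all 12573 genes the median level was 9.25 FPKM, with 144 genes below 1 FPKM on average, 6413 from 1 to 10, 5316 from 10 to 100, 608 from 100 to 1000 and 92 above.

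Across all genes the control lines were about as far apart as replicates of one line. The SD of the log2 difference over genes was 0.24 between the H3.1WT replicates and 0.32 between the shNC replicates. Between single libraries of different lines it ran from 0.25, for the second replicates, to 0.38, for H3.1WT replicate 2 against shNC replicate 1. Between the means of the lines it was 0.22, and the median difference was 0.03. A difference of at least 0.5 on the log2 scale was seen in 364 genes (2.90%), and one of at least 1 in 36 genes (0.286%).

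Of the 12573 genes, 49 (0.39%) passed an adjusted p of 0.05 in the limma comparison on log2(FPKM + 1) with Benjamini-Hochberg adjustment: 31 (0.247%) were higher and 18 (0.143%) lower in H3.1WT. Unadjusted p was under 0.05 for 1438 genes. The fit took its estimate of spread from all 12 libraries, and because of the added 1 the log2 difference of a low gene comes out smaller than its fold change. In all 49 genes the libraries of the lines did not overlap, as for 39.4% of all tested genes (23.3% higher and 16.1% lower). The higher genes had the larger differences: mean FPKM was at least 2-fold apart in 22 of the 31 and in 4 of the 18 (Khdc3, Fkbp6 and the unnamed AU015836 and 2210409E12Rik). The number depended on single libraries: leaving out replicate 1 of H3.1WT gave 15, and its replicate 2 gave 7, while leaving out replicate 1 of shNC gave 7 and its replicate 2 gave 162. Of the 49 genes, 14, 6, 7 and 37 were among those calls. With the 4 control libraries alone, Krt8 was the 1 gene that passed, and with a feeder marker covariate 209 passed, all 49 included.

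**Figure D2:**
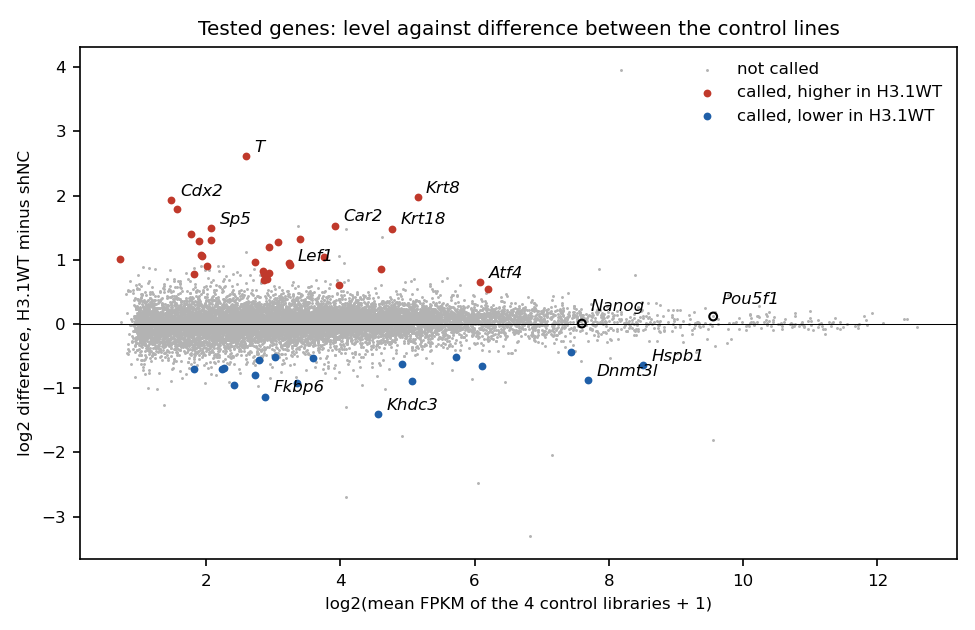
Each point is 1 of the 12573 genes: log2 of the mean FPKM of the 4 control libraries plus 1 on the horizontal axis, and the log2 difference H3.1WT minus shNC on the vertical axis. The 31 genes called higher (red) include T, Krt8 and Cdx2 with the largest called differences, the 18 called lower (blue) lie closer to 0, and Pou5f1 and Nanog (open circles) lie near 0.

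Genes that passed whichever 1 of the 4 control libraries was left out numbered 5: Krt8, Car2, Cdx2, Sp5 and AU018091. Another 10 lost their call whichever library was left out, among them Gabarapl2, Nckap1l, Mmrn2, Rhox5, Sox11 and Gbp1. Krt8, a keratin of simple epithelia, was at 54.3 and 57.1 FPKM in H3.1WT and at 14.1 and 12.8 in shNC. Both H3.1WT libraries were far above both shNC libraries, 4.13-fold on average (log2 difference 1.97, SE 0.14, adjusted p = 0.00047). Car2, a carbonic anhydrase, was at 20.5 and 22.7 FPKM in H3.1WT and at 6.98 and 6.62 in shNC, 3.17-fold higher (log2 difference 1.53, SE 0.11, adjusted p = 0.00047). AU018091, an unnamed protein-coding locus mentioned because the count holds it, was at 22.0 and 22.9 FPKM in H3.1WT and at 43.8 and 41.0 in shNC (log2 difference -0.89, SE 0.07, adjusted p = 0.00074).

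Several genes of the primitive streak, the site where mesoderm and endoderm first form, rose in H3.1WT. Of 21 listed genes, 13 passed the level limit, 5 rose and 0 fell (over all tested genes 0.247% rose), with a median log2 difference of 0.67 against 0.03 over all genes. The difference was positive in 11 of the 13 (56.2% of all tested genes) and negative in 2, Nodal and Mesp2. Nodal, the most abundant, was at 30.9 and 33.1 FPKM in H3.1WT and at 31.9 and 40.3 in shNC (log2 difference -0.16, adjusted p = 0.78). Mesp2 was at 1.86 and 1.45 FPKM against 2.32 and 1.93 (log2 difference -0.24, adjusted p = 0.52). Of the 13, Mixl1, Evx1 and Wnt8a passed the limit through H3.1WT alone, where they were high, and without them 3 of 10 rose and the median was 0.60. T (Brachyury), the T-box factor that marks the streak, was at 7.44 and 11.3 FPKM in H3.1WT and at 0.372 and 1.01 in shNC (log2 difference 2.62, SE 0.27, adjusted p = 0.0046). It was the largest called difference of all, though it lost the call when H3.1WT replicate 2 or shNC replicate 1 was left out. Mixl1, a homeobox factor of the streak, was at 3.09 and 4.10 FPKM in H3.1WT and at 0.246 and 0.398 in shNC (log2 difference 1.79, SE 0.19, adjusted p = 0.0057). Eomes, a T-box factor of streak and trophoblast, was at 3.99 and 4.57 FPKM in H3.1WT and at 1.59 and 2.10 in shNC (log2 difference 0.90, SE 0.14, adjusted p = 0.038).

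The other streak genes called were a ligand and a homeobox gene. Fgf8, a secreted growth factor of the streak, was at 2.72 and 5.27 FPKM in H3.1WT and at 1.05 and 0.634 in shNC (log2 difference 1.40, SE 0.24, adjusted p = 0.046). Evx1, a homeobox gene of the posterior streak, was at 1.02 and 1.40 FPKM in H3.1WT and at 0.0160 and 0.174 in shNC (log2 difference 1.01, SE 0.17, adjusted p = 0.048). Evx1, Mixl1 and Cdx2 could thus enter the test only by being high in H3.1WT. That held for 66 genes through H3.1WT, of which these 3 were called, and for 77 through shNC, of which 0 were called by limma. The other 8 streak genes listed, among them Gsc, Lhx1 and Mesp1, did not reach the limit. With either H3.1WT replicate 2 or shNC replicate 1 left out, 0 of the 13 streak genes were called by limma, with medians of 0.61 and 0.77.

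Cdx2, a caudal-type homeobox factor of trophectoderm and of the posterior embryo, was at 2.80 and 4.10 FPKM in H3.1WT and at 0.0882 and 0.222 in shNC (log2 difference 1.93, SE 0.15, adjusted p = 0.00074). At the depth above, the shNC values rest on few fragments. Sp5, a zinc finger factor known as a direct Wnt target, was at 4.88 and 5.57 FPKM in H3.1WT and at 1.33 and 1.10 in shNC, 4.29-fold higher (log2 difference 1.49, SE 0.11, adjusted p = 0.00054). For both genes the lowest H3.1WT library was above the highest shNC library by more than the gap between replicates.

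The promoters of T, Sp5 and Cdx2 are shown because these genes were among the largest called differences and encode early patterning factors with a single start site in the promoter table. The runs are the 250 bases before the RefSeq start on GRCm38.p6, on the gene's strand, 5′ to 3′. They cover chr17:8434173-8434422 (T, plus strand), chr2:70474673-70474922 (Sp5, plus strand) and chr5:147307250-147307499 (Cdx2, minus strand). Capitals mark CTTTGA or CTTTGT, on either strand, the core letters bound by LEF and TCF factors.
T: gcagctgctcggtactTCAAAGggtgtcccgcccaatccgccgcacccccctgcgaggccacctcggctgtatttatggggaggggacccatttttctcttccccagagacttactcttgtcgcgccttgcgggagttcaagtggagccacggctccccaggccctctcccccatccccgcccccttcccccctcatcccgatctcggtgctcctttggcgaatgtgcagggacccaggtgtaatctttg
Sp5: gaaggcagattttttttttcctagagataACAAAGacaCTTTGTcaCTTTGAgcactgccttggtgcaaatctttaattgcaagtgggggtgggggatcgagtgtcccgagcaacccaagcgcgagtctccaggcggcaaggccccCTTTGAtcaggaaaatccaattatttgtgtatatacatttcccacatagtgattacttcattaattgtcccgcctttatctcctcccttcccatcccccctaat
Cdx2: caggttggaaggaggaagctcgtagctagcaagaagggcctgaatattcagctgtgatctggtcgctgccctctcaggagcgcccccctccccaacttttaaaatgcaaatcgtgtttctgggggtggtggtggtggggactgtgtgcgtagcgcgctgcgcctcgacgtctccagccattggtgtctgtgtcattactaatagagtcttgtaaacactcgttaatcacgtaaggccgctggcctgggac

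The T window held 1 match, the Sp5 window 4 and the Cdx2 window 0. CTTTGA was in 13.8% of all 32851 windows of this length and in 12.4% of the 9315 tested genes with a window. It was in 6 of the 22 genes called higher that had a window (Amot, Atf4, Lef1, Pim2, Sp5 and T) and in 1 of the 12 called lower (Hormad1). CTTTGT was in 16.5% of all windows, in 14.5% of the tested genes, in 5 of the 22 (Amot, Krt18, Lef1, Limd2 and Sp5) and in 3 of the 12 (Fkbp6, Galnt6 and Hormad1). These motifs were chosen after the values were seen, a match is a description of letters only, and absence says only that the letters are not in the window.

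The keratin pair Krt8 and Krt18 rose with Cdx2. Among the 21 genes listed for trophectoderm and simple epithelium, 16 passed the limit, 4 rose (Krt8, Cdx2, Krt18 and Eomes) and 0 fell, while the median difference was 0.11. The share called higher among all tested genes was 0.247%, and Cdx2 entered the test through H3.1WT alone. Other simple epithelial keratins were not called: Krt19 was at 61.8 and 55.1 FPKM in H3.1WT and at 65.1 and 40.1 in shNC (log2 difference 0.19, adjusted p = 0.83), and Krt7 had a log2 difference of 0.07 (adjusted p = 0.90). Krt18, the keratin that pairs with Krt8 in filaments, was at 39.3 and 38.4 FPKM in H3.1WT and at 16.7 and 10.4 in shNC, 2.86-fold higher (log2 difference 1.48, SE 0.19, adjusted p = 0.014). The genes are near neighbours on chromosome 15 (GRCm38), Krt8 at chr15:101996698-102004482 on the minus strand and Krt18 at chr15:102028180-102032027 on the plus strand. The median changed sign to -0.03 without shNC replicate 2. The calls were not equally secure. Alternative analyses called Krt8 in 15 of 15, Cdx2 in 13 of 14, Krt18 in 11 of 15 and Eomes in 7 of 14. The trophectoderm genes Elf5, Gata3, Tfap2a and Plac1 did not reach the level limit, and Plet1 was not analysed here. The genes that moved are thus a pair of keratins and 2 transcription factors shared with the posterior embryo, and the list's name describes them only in part.

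Genes of the primed or formative epiblast, the state that follows naive pluripotency, shared a direction. All 13 tested members were higher on average in H3.1WT, 2 of them were called, and the median difference was 0.35. Over all tested genes 56.2% had a positive difference and 0.247% were called higher. Lef1, an HMG-box partner of beta-catenin, was at 10.7 and 12.1 FPKM in H3.1WT and at 5.14 and 6.02 in shNC, 2.04-fold higher (log2 difference 0.91, SE 0.15, adjusted p = 0.043). Pim2, a serine/threonine kinase gene on the X chromosome, was at 33.5 and 26.9 FPKM in H3.1WT and at 18.0 and 14.6 in shNC, 1.86-fold higher (log2 difference 0.85, SE 0.12, adjusted p = 0.024).

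Below the threshold, Zic2, a zinc finger factor, was at 19.8 and 20.1 FPKM in H3.1WT and at 6.71 and 12.3 in shNC (log2 difference 1.05, adjusted p = 0.099). The de novo DNA methyltransferase Dnmt3b was at 49.7 and 48.5 FPKM in H3.1WT and at 33.3 and 35.3 in shNC (log2 difference 0.51, adjusted p = 0.084). Fgf5, the classic primed ligand, did not reach the level limit. Leaving out H3.1WT replicate 1, H3.1WT replicate 2 or shNC replicate 1 ended both calls of the list, with medians of 0.49, 0.36 and 0.30.

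Targets of the Wnt pathway had positive differences in 10 of 11 tested genes, against 56.2% of all tested genes. Of 14 listed, 2 rose, Sp5 and Lef1, with a median difference of 0.37 (0.247% of all tested genes were called higher). Axin2, a negative feedback component, was at 6.24 and 7.59 FPKM in H3.1WT and at 3.91 and 5.10 in shNC (log2 difference 0.53, adjusted p = 0.16). Cdx1, a caudal homeobox gene, was at 3.58 and 3.59 FPKM in H3.1WT and at 2.27 and 2.12 in shNC (log2 difference 0.52, adjusted p = 0.33). Neither was called. Their libraries did not overlap, a pattern that 23.3% of all tested genes had in this direction. The pair called here also sits in other lists or among the genes named for size, so these groups are not separate evidence.

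Neural genes had 9 tested members, 1 call and a median of 0.15 (0.247% of all tested genes were called higher). The call was Sox11, an SRY-box factor of neural progenitors, at 3.49 and 3.45 FPKM in H3.1WT and at 1.78 and 1.45 in shNC (log2 difference 0.77, SE 0.12, adjusted p = 0.028). Nefl, a neurofilament gene, was at 15.1 and 15.2 FPKM in H3.1WT and at 10.1 and 10.6 in shNC (adjusted p = 0.075). Stmn2, a tubulin-binding stathmin, had the opposite sign, at 60.3 and 63.6 FPKM against 77.3 and 90.4 (adjusted p = 0.24). Sox1 and Zic1, factors of neural progenitors, were below the level limit.

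Further genes with large called increases have varied roles. Cyp26a1, the enzyme that degrades retinoic acid, was at 3.66 and 4.88 FPKM in H3.1WT and at 1.17 and 1.13 in shNC, 3.72-fold higher (log2 difference 1.28, adjusted p = 0.0046). Etv2, an ETS factor of blood and endothelial progenitors, was at 5.37 and 4.58 FPKM in H3.1WT and at 1.00 and 1.91 in shNC (log2 difference 1.30, adjusted p = 0.049). Pmp22, a myelin membrane protein, was at 9.27 and 12.7 FPKM in H3.1WT and at 3.69 and 4.06 in shNC (log2 difference 1.28, adjusted p = 0.018). Etv2 was the least secure of these, with 3 of 14 alternative analyses calling it.

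X-linked Usp26, a deubiquitinase known from testis, was at 13.5 and 14.8 FPKM in H3.1WT and at 5.01 and 5.01 in shNC (log2 difference 1.33, SE 0.16, adjusted p = 0.012). Amot (angiomotin), a regulator of Hippo signalling that is also X-linked, was at 7.75 and 11.6 FPKM in H3.1WT and at 3.43 and 3.74 in shNC (log2 difference 1.20, adjusted p = 0.016). Limd2, a LIM-domain protein, was at 18.7 and 17.4 FPKM in H3.1WT and at 10.9 and 11.9 in shNC (log2 difference 0.61, adjusted p = 0.028). In each of them the libraries of the lines did not overlap, as in every called gene.

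**Figure D3:**
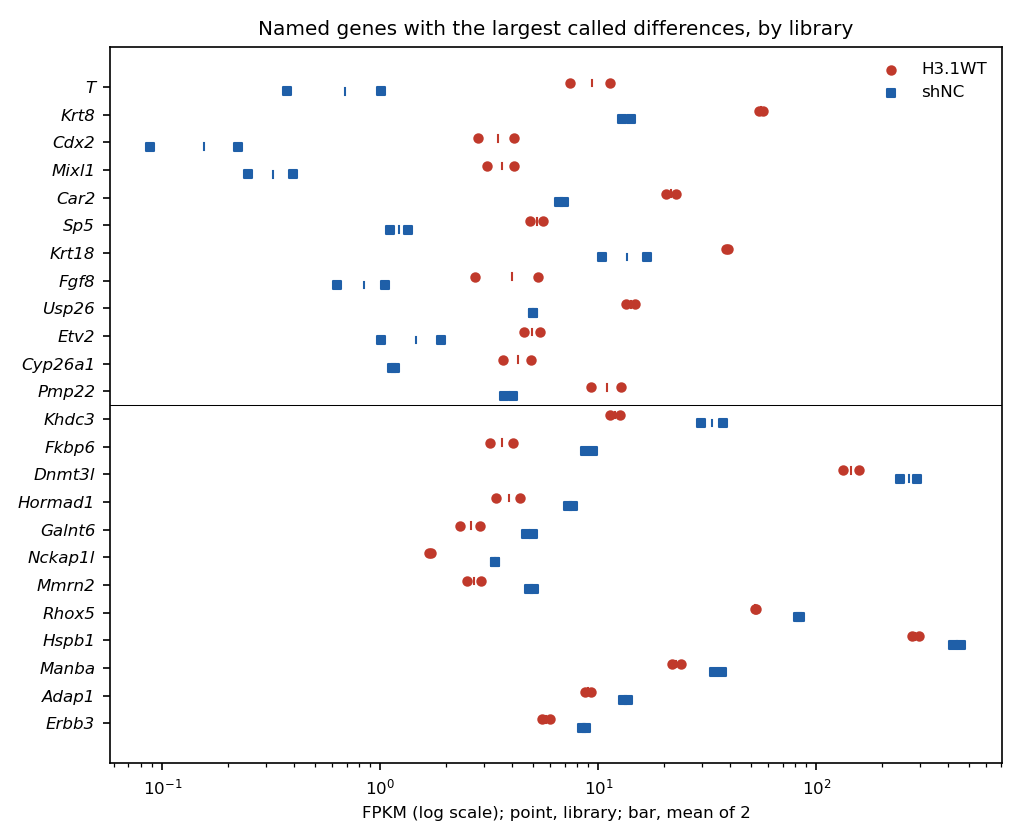
FPKM on a log scale in each control library for the 12 named genes of at least 3 FPKM with the largest called increases (above the line) and the 12 with the largest called decreases (below it) in H3.1WT, unnamed loci left out; circles are H3.1WT libraries, squares shNC libraries and small bars the mean of 2. No gene's circles and squares overlap, which was a condition for showing it, and the gaps are wider in the upper block.

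The largest decreases in H3.1WT were those of Khdc3 and Fkbp6. Khdc3 (Filia), a component of the subcortical maternal complex of oocytes, was at 11.3 and 12.6 FPKM in H3.1WT and at 29.5 and 37.1 in shNC, 35.7% of the shNC mean (log2 difference -1.40, SE 0.16, adjusted p = 0.0092). Fkbp6, needed for meiosis and piRNA biogenesis in the testis, was at 4.06 and 3.19 FPKM in H3.1WT and at 8.70 and 9.48 in shNC, 39.9% of the shNC mean (log2 difference -1.13, SE 0.12, adjusted p = 0.0059). Hormad1, a HORMA-domain protein of meiotic chromosomes, was at 4.38 and 3.397 FPKM in H3.1WT and at 7.24 and 7.61 in shNC (log2 difference -0.79, SE 0.12, adjusted p = 0.028). Fkbp6 and Hormad1 were the 2 calls among 25 tested germline genes that promoter DNA methylation silences in somatic cells. There 0 rose and the median was -0.13 (0.143% of all tested genes were called lower). The spread of that list was wide: Tuba3a was at 30.3 and 25.3 FPKM against 37.9 and 40.5 (adjusted p = 0.26), and Mael at 6.89 and 4.96 against 9.41 and 7.51 (adjusted p = 0.30). Both list calls were lost without H3.1WT replicate 2 or without shNC replicate 1.

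Dnmt3l, the catalytically inactive cofactor of the de novo DNA methyltransferases, was the most abundant gene after Hspb1 among the 12 largest decreases of named genes. It was at 157 and 132 FPKM in H3.1WT and at 289 and 242 in shNC, 54.5% of the shNC mean (log2 difference -0.87, SE 0.14, adjusted p = 0.039). Of 15 alternative analyses, 8 called Dnmt3l, and its call was lost without a level filter. Among the 10 genes of DNA methylation and demethylation it was the 1 call, and the median was 0.04 (0.143% of all tested genes were called lower). Dnmt3b differed in the other direction without passing, with the values given above. Tdg, a glycosylase that removes oxidised methylcytosine, was at 16.2 and 17.7 FPKM in H3.1WT and at 11.04 and 13.03 in shNC (log2 difference 0.46, adjusted p = 0.19). The partner enzyme Dnmt3a was at 27.9 and 27.7 FPKM in H3.1WT and at 19.5 and 24.2 in shNC (log2 difference 0.34, adjusted p = 0.28).

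X-linked Rhox, Xlr and Mage genes, which germ cells express, went both ways. Of 32 listed genes 13 were tested, 1 fell and 0 rose, with a median of 0.22 (0.143% of all tested genes were called lower). Rhox5, a reproductive homeobox gene, was at 52.4 and 52.7 FPKM in H3.1WT and at 84.1 and 82.6 in shNC (log2 difference -0.66, SE 0.11, adjusted p = 0.039). Rhox6 was at 5.21 and 5.05 FPKM against 9.96 and 13.3 (log2 difference -1.03, adjusted p = 0.069), and Rhox9 at 7.17 and 6.49 against 10.9 and 11.1 (log2 difference -0.62, adjusted p = 0.12). Rhox13 lay the other way at 4.63 and 5.12 FPKM against 2.88 and 2.48 (log2 difference 0.68, adjusted p = 0.14). Xlr3c was low in both lines, at 2.10 and 1.35 FPKM in H3.1WT and at 1.02 and 1.29 in shNC (adjusted p = 0.49). Rhox and Xlr genes have near-identical copies, so how reads were divided among them is uncertain.

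Hspb1, a small heat shock protein, was at 273 and 294 FPKM in H3.1WT and at 422 and 462 in shNC (log2 difference -0.64, adjusted p = 0.021). Manba, a lysosomal mannosidase, was at 23.9 and 21.7 FPKM in H3.1WT and at 34.0 and 37.1 in shNC (log2 difference -0.62, adjusted p = 0.024). Galnt6, an enzyme of mucin-type glycosylation, was at 2.88 and 2.31 FPKM in H3.1WT and at 5.00 and 4.68 in shNC (log2 difference -0.70, adjusted p = 0.032). For all 3 the replicates of each line lay close together relative to the gap between the lines.

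Nckap1l, an actin regulator of blood cells, was at 1.68 and 1.71 FPKM in H3.1WT and at 3.36 and 3.37 in shNC (log2 difference -0.70, adjusted p = 0.043). Mmrn2, an endothelial matrix protein, was at 2.89 and 2.49 FPKM in H3.1WT and at 5.07 and 4.82 in shNC (log2 difference -0.69, adjusted p = 0.041). Gabarapl2, an autophagy protein of the Atg8 family, was at 149 and 145 FPKM in H3.1WT and at 188 and 210 in shNC, the smallest called difference (log2 difference -0.43, adjusted p = 0.043). Adap1, a GTPase-activating protein for Arf, and the receptor gene Erbb3 completed the named decreases, at log2 differences of -0.52 and -0.51.

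Pluripotency genes differed little. In the core list 0 of 17 genes were called by limma, 1 had an unadjusted p under 0.05, and the median difference was 0.07. That 1 gene was Sall4, a zinc finger factor, at 28.9 and 37.8 FPKM in H3.1WT and at 19.8 and 29.5 in shNC, where the lines overlapped. Fgf4, the growth factor that primes cells for differentiation, was at 30.0 and 29.6 FPKM against 40.8 and 33.4 (adjusted p = 0.46). Sox2 was at 165 and 164 FPKM against 137 and 157 (adjusted p = 0.76), and the log2 difference of Nanog was 0.01 with an SE of 0.17.

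Of the 20 naive pluripotency genes, 1 fell (Manba, above) and 0 rose, with a median of 0.06 (0.143% of all tested genes were called lower). Unadjusted p was under 0.05 for 5 of the 20, Manba included. Esrrb, an orphan nuclear receptor, was at 117 and 109.9 FPKM in H3.1WT and at 121 and 113 in shNC (adjusted p = 0.92). Klf4, a Kruppel-like factor, was at 71.3 and 58.9 FPKM against 61.6 and 56.9 (adjusted p = 0.64). Dppa3 (Stella), a maternal factor, was at 55.9 and 54.5 FPKM against 30.5 and 38.7 (log2 difference 0.67, adjusted p = 0.28). Tcl1, an Akt coactivator, was at 29.3 and 32.6 FPKM against 35.2 and 47.7 (adjusted p = 0.31), and Klf2 at 255 and 214 against 184 and 191 (adjusted p = 0.39). Esrrb, Klf4, Dppa3, Tcl1 and Klf2 did not pass.

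Endoderm genes had the lowest median of the 27 lists, -0.25, with 13 tested and 0 called by limma, while 4 had an unadjusted p under 0.05. Srgn, a proteoglycan core protein, was at 0.836 and 0.536 FPKM in H3.1WT and at 1.84 and 1.65 in shNC (log2 difference -0.71, adjusted p = 0.084). Srgn, 1 of these 4, passed the level limit through shNC alone, where it was high, and is included in the median. Amn (amnionless), a visceral endoderm membrane protein, was at 2.30 and 2.95 FPKM in H3.1WT and at 4.82 and 4.00 in shNC (log2 difference -0.58, adjusted p = 0.12). The defining factors Gata6, Sox17 and Sox7 did not reach the level limit. Gata4, also listed, passed it at 1.51 and 1.58 FPKM in H3.1WT and at 1.39 and 1.13 in shNC (log2 difference 0.18, adjusted p = 0.61). Of the 13 tested members, 2 had a positive difference and 11 a negative one (56.2% of all tested genes were positive).

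The stress-response list had 1 call among 30 tested genes and a median of 0.18 (0.247% of all tested genes were called higher). Atf4, the transcription factor of the integrated stress response, was at 82.2 and 81.4 FPKM in H3.1WT and at 48.6 and 55.1 in shNC (log2 difference 0.65, SE 0.10, adjusted p = 0.033). Its target Chac1, a glutathione-degrading enzyme, was at 12.4 and 15.9 FPKM in H3.1WT and at 2.53 and 6.70 in shNC (log2 difference 1.53, SE 0.34, adjusted p = 0.12). Herpud1, a component of endoplasmic reticulum-associated degradation, was at 17.0 and 14.3 FPKM against 7.80 and 11.3 (adjusted p = 0.18). For all 3 the lines did not overlap, a pattern that 23.3% of all tested genes had in this direction, and the shNC replicates of Chac1 were far apart.

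Interferon-response genes split. Of 29 tested genes 2 rose and 0 fell, yet the median was -0.21 (0.247% of all tested genes were called higher). Psmb8, an immunoproteasome subunit, was at 7.61 and 7.91 FPKM in H3.1WT and at 3.76 and 3.20 in shNC (log2 difference 0.97, SE 0.13, adjusted p = 0.017). Gbp1, a guanylate-binding protein, was at 3.32 and 5.06 FPKM in H3.1WT and at 1.57 and 1.35 in shNC (log2 difference 1.06, SE 0.18, adjusted p = 0.049). Bst2 (tetherin), an antiviral membrane protein, was at 156 and 147 FPKM in H3.1WT and at 261 and 196 in shNC (log2 difference -0.58, adjusted p = 0.12). The 2 genes that rose therefore do not stand for the list.

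Imprinted genes, expressed from 1 parental allele, had 1 call among 35 (0.247% of all tested genes were called higher). Mest was at 82.0 and 89.5 FPKM in H3.1WT and at 57.4 and 59.8 in shNC (log2 difference 0.54, SE 0.08, adjusted p = 0.022). Peg3, a zinc finger gene expressed from the paternal allele, was at 19.9 and 22.0 FPKM in H3.1WT and at 11.7 and 9.21 in shNC (log2 difference 0.95, adjusted p = 0.11). Its antisense partner Peg3as, named here for that reason and after its values were seen, was at 17.4 and 17.2 FPKM against 8.11 and 7.56 (log2 difference 1.05, adjusted p = 0.028). Without a statement that counting used strand, reads of Peg3 and Peg3as cannot be told apart. The median of the list was 0.05, with Peg13, which passed the level limit through H3.1WT alone, included.

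The H3K9 methylation machinery had 0 calls by limma among 20 tested genes, 3 with an unadjusted p under 0.05, and a median of 0.09. Suv39h1, an H3K9 methyltransferase of heterochromatin, was at 10.3 and 12.2 FPKM in H3.1WT and at 8.58 and 7.52 in shNC (log2 difference 0.44, SE 0.10, adjusted p = 0.15). Its paralog Suv39h2 was at 5.43 and 5.63 FPKM against 4.797 and 4.78 (log2 difference 0.17, adjusted p = 0.52). Ehmt2 (G9a), which places H3K9 mono- and dimethylation, was at 47.1 and 47.4 FPKM against 60.2 and 53.1 (log2 difference -0.25, adjusted p = 0.28).

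Replication-dependent H3 genes had 9 tested members, 0 calls by limma, 0 unadjusted p values under 0.05 and a median of -0.17. Hist1h3e was at 8.99 and 8.54 FPKM in H3.1WT and at 11.1 and 10.2 in shNC, and Hist1h3c at 15.9 and 15.1 against 20.5 and 16.1. These near-identical genes lack poly(A) tails, mRNA was captured, and the labels do not say whether the H3.1 construct maps to any of them. The overexpressed histone is therefore not checked by these values.

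Mismatch repair genes and their polymerases had 24 tested members, 0 calls by limma, 3 unadjusted p values under 0.05 and a median of 0.08. Rfc3, a subunit of the clamp loader, was at 32.5 and 32.6 FPKM in H3.1WT and at 22.5 and 30.2 in shNC (log2 difference 0.31, adjusted p = 0.36). Y-linked genes had 5 tested members, 0 calls by limma, 1 unadjusted p under 0.05 and a median of 0.04. That 1 gene was Zfy1, which passed the level limit through H3.1WT alone. The 34 tested feeder markers had 0 calls by limma, 1 unadjusted p under 0.05, a median of -0.13 and 28 members lower on average in H3.1WT. A further 8 lists (Nodal and BMP targets, ERK feedback, 2-cell-like, immediate early, p53 targets, glycolysis and hypoxia, cholesterol synthesis, H3K36 methylation machinery) held 142 tested entries, 0 of them called by limma, with medians from -0.05 to 0.21. In all, 12 of the 27 lists had a call and 15 had none.

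**Figure D4:**
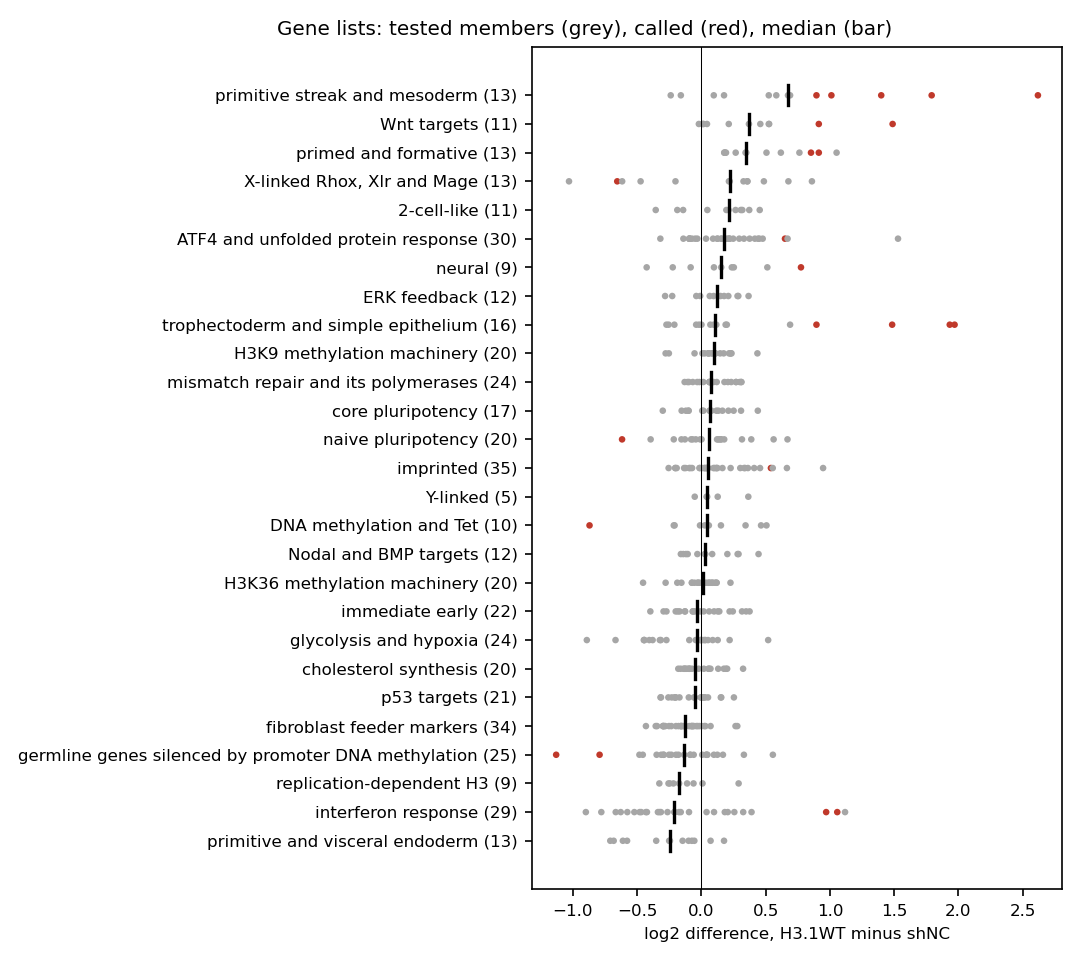
The log2 difference H3.1WT minus shNC of every tested member (points) of the 27 gene lists, with the number tested in brackets; red points passed the limma test and bars are list medians. Primitive streak genes have the highest median, 0.67, and endoderm genes the lowest, -0.25, and most members of most lists lie within 0.5 of zero.

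The called differences were then set beside the other 8 libraries, whose values do not enter the control difference. They do enter the spread behind the calls, so the called genes were partly picked for close replicates in these libraries too. There the mean of H3.1K9M and H3.1K36M was compared with the mean of shSuv39h1 and shSuv39h2, so that contrast holds the histone changes and the knockdowns as well as the arm. It called 1483 genes (11.8%), 5.58% higher and 6.22% lower in the overexpression lines, but 323 with a feeder marker covariate in the fit. Of the 31 genes higher in H3.1WT, 23 were higher in the overexpression lines there too, 18 of them called, and 3 were called in the opposite direction (Lef1, Atf4 and, named after its values were seen, Tapbpl). Of the 18 lower genes, 9 were lower there too, 6 of them called, and 4 were called in the opposite direction (Fkbp6, Mmrn2, Nckap1l and Rhox5).

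The histone mutant lines lay differently against the hairpin lines in these genes. Of the 31 genes higher in H3.1WT, 25 were higher in both H3.1K9M libraries than in all 4 shSuv39h libraries, a pattern shown by 7.97% of all tested genes. In H3.1K36M the number was 7, against 27.5% of all genes, and 12 of the 31 were below all 4 shSuv39h libraries, against 22.4%. Of the 18 genes lower in H3.1WT, 12 were below all 4 hairpin libraries in H3.1K9M (12.5% of all genes) and 2 in H3.1K36M (22.4%), where 11 were above all 4 instead. This counts libraries and is not a test of H3.1K9M against H3.1K36M. Genes picked partly for close replicates in these libraries can keep apart more often than other genes.

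T showed this pattern at 10.9 and 8.22 FPKM in H3.1K9M and 0.642 and 0.981 in H3.1K36M, with 0.233 to 1.79 in the shSuv39h libraries. Cdx2 was at 2.74 and 2.89 FPKM in H3.1K9M, at 0.229 and 0.139 in H3.1K36M and between 0.302 and 0.485 in the shSuv39h lines. Sp5 was at 4.58 and 4.79 FPKM in H3.1K9M, at 1.82 and 1.63 in H3.1K36M and between 1.44 and 1.87 in the shSuv39h lines. For these 3 genes H3.1WT and H3.1K9M were high, and H3.1K36M lay with the hairpin lines or below them.

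The size of the difference was tested as well. The control difference departed from that of the other 8 libraries in 120 genes (0.954%) by the limma test of the difference, or 195 with the feeder covariate. Of the 31 higher genes 13 were among these, and of the 18 lower genes 11, in each case with the control difference the more extreme in its own direction. The called genes were picked for a large control difference, which is part of the tested quantity. That choice favours both these counts and this direction. Krt8 had a control difference of 1.97 and one of -0.19 among the other 8 libraries (difference of differences 2.16, SE 0.17, adjusted p = 0.00078). Krt8 was at 38.8 and 54.8 FPKM in H3.1K9M, at 5.35 and 5.49 in H3.1K36M, and between 17.3 and 21.4 in the shSuv39h lines. Fkbp6 reversed: -1.13 between the controls and 0.93 among the others (difference of differences -2.06, SE 0.15, adjusted p = 0.00071). It was at 1.30 and 1.46 FPKM in H3.1K9M, at 11.05 and 11.3 in H3.1K36M, and between 1.07 and 2.80 in the shSuv39h lines.

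Some differences followed the arm in all lines. No overlap between all 6 overexpression and all 6 hairpin libraries was seen in 1.36% of all tested genes and in 6 of the 49 called genes, which already kept the control lines apart. Among all genes with control lines apart in the same direction it was seen in 2.53% of the higher and 4.79% of the lower. Of the 31 higher genes, 4 were higher in all 6 overexpression libraries than in all 6 hairpin libraries (0.589% of all tested genes): Amot, Sox11, Limd2 and the unnamed BC023829. Of the 18 lower genes, 2 were lower in all 6 (0.771%): Dnmt3l and Gabarapl2. Amot was at 8.05 and 8.202 FPKM in H3.1K9M, at 4.56 and 4.60 in H3.1K36M, and between 2.55 and 3.93 in the shSuv39h lines. Dnmt3l was at 118 and 159 FPKM in H3.1K9M, at 152 and 158 in H3.1K36M, and between 195 and 238 in the shSuv39h lines. Gabarapl2 was at 100.1 and 100.7 FPKM in H3.1K9M, at 169 and 171 in H3.1K36M, and between 177 and 182 in the shSuv39h lines. For Gabarapl2 the log2 difference was -0.43 (SE 0.07) between the controls and -0.45 (SE 0.05) among the others.

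**Figure D5:**
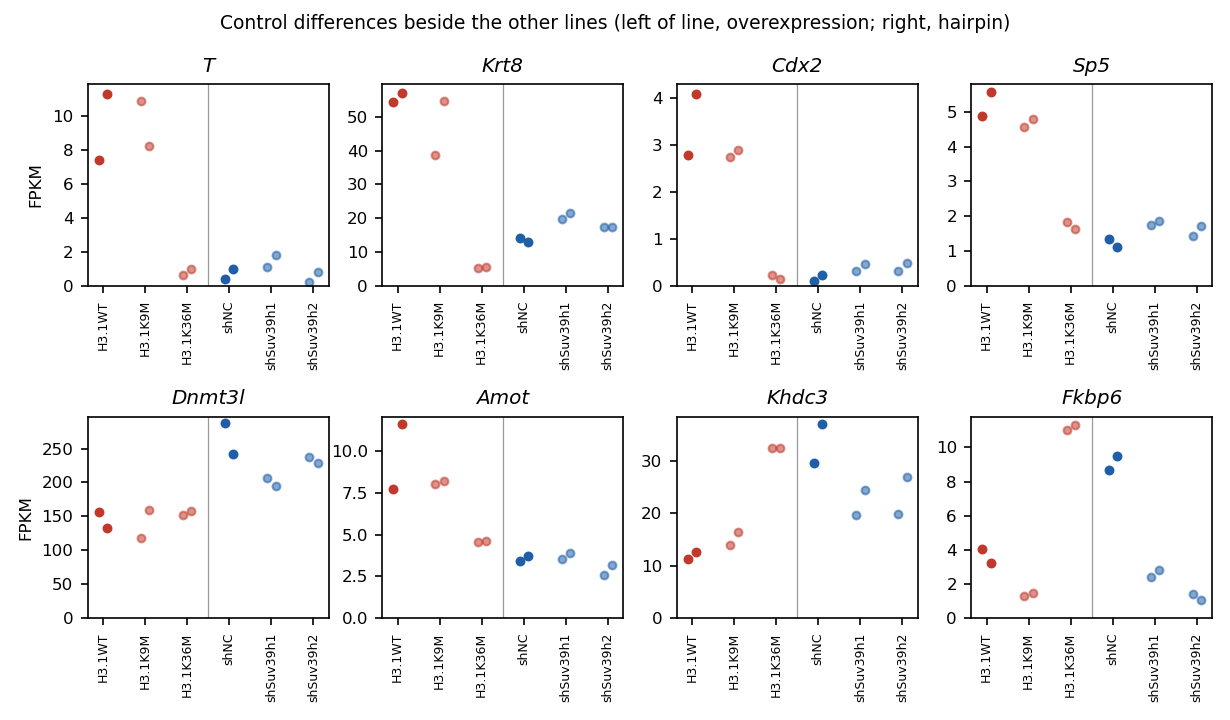
FPKM of 8 named genes in all 12 libraries (points, 2 per line), on linear axes from 0; the vertical line separates the 3 overexpression lines (red) from the 3 hairpin lines (blue), and filled points are the controls. T, Krt8, Cdx2 and Sp5 are highest in H3.1WT and H3.1K9M, Amot and Dnmt3l keep the arms apart in every line, and Khdc3 and Fkbp6 are highest in shNC and H3.1K36M.

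No chromosome stood apart between the control lines. Median log2 differences by chromosome ran from 0.005 on chromosome 9 to 0.061 on X over 20 chromosomes, Y left out, and no chromosome held more than 5 calls. The median deviation of a library on any of them lay between -0.050 and 0.053.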

How the data were processed

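Each library had a deposited table of gene symbols and FPKM values. Per the submitters' processing notes the authors used TopHat2 2.0.13, Cuffdiff 2.2.1 and the mm10 build; roles, settings, annotation and whether the arms were scaled together remain unstated there. The arms' tables differ by 1 symbol each, and the 23354 shared symbols were used. The unit FPKM was inferred from the deposited values. Genes reaching 1 FPKM in 2 or more of the 4 control libraries entered, and log2(FPKM + 1) was fitted in limma 3.58.1 (R 4.3.3) with 6 group means over 12 libraries (6 residual degrees of freedom) and tested with empirical Bayes moderation and Benjamini-Hochberg adjustment at 0.05. A permutation of 2 against 2 libraries cannot give a two-sided p below 0.333.

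On simulated data for the control comparison (12514 genes), 94 of 100 genes changed by 1 log2 unit and 99 of 100 changed by 2 were called, with 11 unchanged genes called. The changed genes were drawn without those of low level, so recovery of low genes such as Cdx2 was not tested. The simulated spread of a gene was the same in all lines. Genes were named by rule: up to 12 largest calls per direction at 3 FPKM or more without unnamed or small RNA genes, up to 4 smallest p values per list described, the 10 most abundant genes, chosen pluripotency and H3K9 genes, and up to 6 calls per direction that kept apart in all 12 libraries or differed from the other 8. Calls named for size also had to keep the control lines apart, which every called gene did. Members and lists were chosen with earlier results of these data known. Chromosomes came from GENCODE M21 on GRCm38, matching 11843 symbols directly and 649 by older symbols, with 81 unmatched. Some genes that the naming rule selects are not reported here.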

Additional observations from a re-analysis of the deposited data

Results flagged for a closer look

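The difference between the control lines departed from the matching difference among the other 8 libraries in 120 genes by the limma test of the difference. Among the genes named for the control comparison, Krt8 had the largest positive departure, 2.16 on the log2 scale. The others that were higher in H3.1WT departed by 1.66 for Krt18, 1.32 for Cdx2, 1.05 for Car2, 0.95 for Cyp26a1 and 0.94 for Sp5. Of those lower in H3.1WT, Fkbp6 departed by -2.06, Khdc3 by -1.39, Nckap1l by -1.28, Mmrn2 by -1.09, Hormad1 by -0.89 and Galnt6 by -0.83. The other 8 libraries carry histone mutants and knockdowns, and the part of each in these departures was not tested. The genes named were picked for a large control difference, which favours departures in its direction.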

How the results depend on the processing

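Direction held for all 49 called genes in every alternative that tested them (the filter of 5 FPKM tested 35 of them), and Krt8 passed in all 15. Only quantile normalization, median-of-ratios scaling and the feeder covariate could have turned a direction. Where the lines do not overlap, leaving out a library or changing the pseudocount cannot turn it. The other settings leave the difference itself unchanged. The number called, 49, was 43 with a pseudocount of 0.1, 45 without a level filter, 33 with a filter of 5 FPKM (20 higher), 49 after quantile normalization, 46 after median-of-ratios scaling and 33 with array quality weights (9 lower). The 4 control libraries alone gave 1 higher and 0 lower by limma (422 lower at an unadjusted p under 0.05), and testing against a fold of 1.5 gave 5 higher and 0 lower (14 at an unadjusted p under 0.05). A feeder marker covariate gave 209 calls (120 higher, 89 lower), 323 in place of 1483 among the other 8 libraries and 195 in place of 120 for the test of the difference. Leaving out 1 control library, with the lone library of a line assumed to vary like the others, gave 7 to 162 calls, 5 to 115 higher and 2 to 47 lower. The causes of these shifts were not tested.

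Replicate numbers are shared between the groups, but no label says that they mark a pairing, and only 2 pairs exist. The correlation of same-numbered deviations was 0.45 between H3.1WT and shNC, and from -0.44 to 0.57 between the other groups. With a replicate block the count was 45 in the 12-library fit and 385 (200 higher, 185 lower) in the 4 control libraries alone.

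Genes not called had signs that turned near zero. Nanog was -0.034 after quantile normalization, -0.019 with median-of-ratios scaling, -0.0027 with the feeder covariate, and -0.24 to 0.25 with a library left out. With 1 library left out, L1td1 ran from -0.062 to 0.68, Zfp42 from -0.082 to 0.24, Klf4 from -0.0064 to 0.26, Ddx3y from -0.18 to 0.071 and Esrrb from -0.093 to 0.0057.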

Other observations

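The 6 largest differences that did not pass were those of the small RNA genes Mir703, Snora44 and Snord15b and of Rmrp, Lars2 and Rn45s, named here after their values were seen. Rn45s, the ribosomal RNA precursor, was at 433 and 210.2 FPKM in H3.1WT and at 648 and 1714 in shNC (log2 difference -1.80, SE 0.58, adjusted p = 0.28 by limma). Lars2, a mitochondrial leucyl-tRNA synthetase, was at 52.4 and 41.0 FPKM in H3.1WT and at 101.1 and 368 in shNC (log2 difference -2.03, adjusted p = 0.20). Rmrp, the RNA of the RNase MRP complex, was at 13.98 and 14.1 FPKM in H3.1WT and at 34.4 and 199 in shNC (log2 difference -2.48, adjusted p = 0.35). In all 3 genes shNC replicate 2 was the highest control library by more than 2-fold over any other. Both shNC libraries were above both H3.1WT libraries, as for 16.1% of all tested genes. Whether these RNAs move with the called genes was not tested.

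Ifi27l1, an interferon-inducible gene outside the interferon list, was at 10.7 and 13.9 FPKM in H3.1WT and at 62.6 and 29.5 in shNC (log2 difference -1.74, adjusted p = 0.078). Magohb, a subunit of the exon junction complex, was at 21.7 and 25.1 FPKM in H3.1WT and at 4.94 and 11.99 in shNC (log2 difference 1.47, adjusted p = 0.099). Stra8, the gene of meiotic entry, was at 3.80 and 3.39 FPKM in H3.1WT and at 9.51 and 6.71 in shNC (log2 difference -0.97, adjusted p = 0.084). In these 3 genes the lines did not overlap, as for 39.4% of all tested genes, and none passed the threshold.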
